A study of Mus musculus with 2 samples.

Results

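The constant region genes of the immunoglobulin loci were followed through single lung leukocytes of 2 libraries, 1 from mice exposed to diesel exhaust particles and 1 from mice without treatment. The members were the 10 genes Ighm, Ighd, Igha, Ighg1, Ighg2b, Ighg2c, Ighg3, Igkc, Iglc1 and Iglc2, chosen by symbol out of 31053 genes in the count tables. All 10 were present in both tables. The exposed library (DEP_high) came from animals that inhaled particles at 500 µg/m³ for 1 hour per day on 5 days per week over 2 weeks, with the genotype label Ccr2-/- (KO), CD45.3+. The control library came from animals without treatment, with the genotype label Ccr2-/- (KO), CD45.1+, so the CD45 allele and the exposure cannot be told apart. Sorted CD45+ cells of perfused and digested lungs were used, the series design names C57BL/6J as wild type beside the knockout, and age, sex and pooling of animals were not given in the sources used here. With 1 library per group no test between groups was possible. All intervals below are 95% intervals that cover counting error only, and animals are not replicated.

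An antibody is built from heavy and light chains, and the constant region of the heavy chain sets its class. A B cell that has not switched class makes Ighm and Ighd from 1 long transcript by splicing, while class switching removes the DNA between the variable exon and a downstream gene (Ighg, Ighe or Igha). A single B cell uses kappa (Igkc) or lambda (Iglc) light chains, and in mice most B cells use kappa. When a B cell becomes an antibody-secreting cell, immunoglobulin messages come to dominate its RNA, and Jchain, the joining chain of IgM and IgA polymers, is made with them.

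In the mm10 build all heavy chain members lie on the minus strand of chromosome 12, in the order Ighm (chr12:113418558-113422730), Ighd (chr12:113406604-113416324), Ighg3 (chr12:113356224-113361232), Ighg1 (chr12:113325240-113330523), Ighg2b (chr12:113302965-113307933), Ighg2c (chr12:113285325-113288932) and Igha (chr12:113254830-113260236). Ighe lies between Ighg2c and Igha (chr12:113269260-113273248). Igkc is on the plus strand of chromosome 6 (chr6:70726435-70726966). Iglc1 (chr16:19061618-19062071) and Iglc2 (chr16:19198396-19200351) are on the minus strand of chromosome 16, with Iglc3 (chr16:19065230-19065681) and Iglc4 (chr16:19194999-19195312) between them. The last 90 coding bases before the stop codon, close to the end that the 3′ assay reads, are shown for the lambda genes because 2 of them are hard to tell apart. The sequences are from the GENCODE transcripts of the same build, in the sense of the transcript, and capitals mark bases that differ from Iglc2.
Iglc2 (chr16:19198539-19198628): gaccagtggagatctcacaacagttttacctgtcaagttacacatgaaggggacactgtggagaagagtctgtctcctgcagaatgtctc
Iglc3 (chr16:19065368-19065457): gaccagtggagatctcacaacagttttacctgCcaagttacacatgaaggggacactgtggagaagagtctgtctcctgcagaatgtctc
Iglc1 (chr16:19061755-19061844): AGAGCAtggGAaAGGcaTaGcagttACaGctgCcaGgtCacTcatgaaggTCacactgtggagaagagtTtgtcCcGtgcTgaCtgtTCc
In this window Iglc3 differed from Iglc2 at 1 base and Iglc1 at 29 bases. Over the constant exon, in a global alignment, Iglc2 and Iglc3 were 96.2% identical with a shared run of 79 bases, while Iglc2 and Iglc1 were 73.4% identical with a longest shared run of 19 bases. Reads of Iglc2 and Iglc3 could therefore be split or lost between the 2 genes, and Iglc2 levels are uncertain in that respect. The IgG genes are shown with capitals for bases that differ from Ighg2b, to show where the coding ends of 1 transcript of each gene differ. Each IgG gene reaches further 3′ than its window, so these windows need not lie close to the end that the assay reads.
Ighg2b (chr12:113306392-113306481): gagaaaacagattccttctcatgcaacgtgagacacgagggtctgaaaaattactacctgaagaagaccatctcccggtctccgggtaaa
Ighg2c (chr12:113287392-113287481): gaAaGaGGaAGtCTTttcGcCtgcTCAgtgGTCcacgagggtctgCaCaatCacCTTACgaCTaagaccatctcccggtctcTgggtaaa
Ighg1 (chr12:113328979-113329068): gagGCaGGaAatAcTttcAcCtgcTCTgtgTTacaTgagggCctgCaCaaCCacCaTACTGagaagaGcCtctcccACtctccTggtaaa
Ighg3 (chr12:113359668-113359757): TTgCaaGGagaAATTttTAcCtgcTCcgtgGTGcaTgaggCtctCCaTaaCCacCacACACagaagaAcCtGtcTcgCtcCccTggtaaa
Over the last coding exon of these transcripts, 320 bases long, the IgG genes shared 66.4% to 76.6% of aligned positions. The longest run shared by any pair was 19 bases.

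Transcripts were counted as unique molecular identifiers (UMIs): 67030914 in the 10000 barcodes of the exposed library, and 62047730 in the 10312 barcodes of the control library. Filters and doublet removal left 8690 exposed and 8940 control cells, at medians of 4148 and 3670 UMIs, and 23 barcode sequences occurred in both libraries. Although both libraries are labelled Ccr2-/-, 97.5% of 593 exposed and 90.4% of 385 control classical monocyte-like cells held Ccr2 UMIs. Which part of Ccr2 is deleted was not given, so 3′ tags do not check that label. B cells were taken as cells with at least 3 UMIs summed over Cd79a and Cd79b, the signalling chains of the B cell receptor, and Ms4a1, which encodes CD20. This rule gave 1811 exposed B cells (20.8% of kept cells) and 2035 control B cells (22.8%), at medians of 3659 and 3364 UMIs. Genes outside the rule fitted the name: Ebf1, a B lineage transcription factor, had UMIs in 98.5% of exposed B cells and 98.3% of control B cells. Cd3e, a CD3 chain of the T cell receptor complex, had UMIs in 1.38% and 2.36%. Of these B cells, 1784 exposed and 1947 control cells lay in clusters named B, which were made without immunoglobulin genes. Class names below stand for clusters that are T-like, NK-like and so on by marker genes. Just outside the threshold, at a sum of 2, the 24 exposed and 76 control cells had median Igkc counts of 0 in both libraries. Just inside, at a sum of 3, the 13 exposed and 18 control cells had medians of 0 and 2.5.

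Members made up 2.43% of the UMIs of exposed B cells and 2.19% of those of control B cells. Igkc and Ighm led in both libraries and their levels were close, whereas Iglc1 was higher and Ighg3 lower in exposed B cells past 1.5-fold. Most of the UMIs behind both differences came from 3 cells, 2 exposed cells for Iglc1 and 1 control cell for Ighg3. A member was called when the interval of the ratio lay wholly beyond 1.5-fold, among genes with at least 50 UMIs in all. By that rule 1 of the 8 members with enough UMIs was higher in exposed B cells, where 0.113% of 9749 genes were, and 1 was lower, where 3.21% of genes were. The median log2 ratio over all these genes was -0.15, so small ratios are read against that shift.

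Ighm, the IgM heavy chain, stood at 4773 counts per 1000000 UMIs (CPM) in exposed B cells and 5307 CPM in control B cells. Its log2 ratio was -0.15 [-0.17 to -0.13], the same as the median of all genes. Under 11 other settings the Ighm ratio ranged from -0.33 to -0.08. Per cell the median was 13 Ighm UMIs in exposed and 15 in control B cells, and 99.6% and 99.4% of B cells had an Ighm UMI. Ighd, the IgD heavy chain, which marks mature naive cells, stood at 1033 CPM in exposed and 951 CPM in control B cells, with a median of 4 UMIs per cell in each library. Its log2 ratio was 0.12 [0.08 to 0.16], and among B cells in clusters named B it was -0.01. The heavy chain of IgA, Igha, stood at 1471 CPM in exposed and 1657 CPM in control B cells, yet its median per cell was 0 UMIs in both.

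Ighg1 had 0 UMIs in every barcode of both libraries. A total of 3 UMIs, the limit that a count of 0 allows, would have been 0.0448 CPM in the exposed and 0.0483 CPM in the control library. Ighg2b had 142 UMIs in exposed and 141 UMIs in control B cells, or 18.2 and 16.0 CPM. Ighg2c had 0 UMIs in exposed and 24 UMIs in control B cells, all of them in 2 cells. Ighg3 had 26 UMIs in exposed and 1536 UMIs in control B cells, or 3.33 and 174 CPM, which was 52.2-fold lower [35.5 to 80.1] in exposed B cells. A single control cell held 1411 of the control Ighg3 UMIs, 91.9% of them. Ighe, the IgE heavy chain and no member, had 0 UMIs in B cells of either library and 3 UMIs in the whole exposed library.

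Among light chains, Igkc stood at 11868 CPM in exposed and 11688 CPM in control B cells, at medians of 29 and 27 UMIs per cell. The log2 ratio was 0.02 [0.01 to 0.04], and its sign turned under 4 of 11 other settings. Iglc2, a lambda constant gene, stood at 1604 CPM in exposed and 1486 CPM in control B cells, with a median of 4 UMIs per cell in both. Iglc1, the other lambda member, stood at 3572 CPM in exposed and 571 CPM in control B cells, 6.25-fold higher [6.07 to 6.44]. The per-cell median of Iglc1 was 0 UMIs in both libraries, and 45.2% of exposed and 41.8% of control B cells had an Iglc1 UMI. In exposed B cells 2 cells held 23021 of the 27863 Iglc1 UMIs. In control B cells the 2 cells with most Iglc1 held 173 of 5046 UMIs.

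Cells with at least 10 Jchain UMIs were set aside to see how much they carried. Without them Iglc1 stood at 632 CPM in exposed and 563 CPM in control B cells, a log2 ratio of 0.17 [0.11 to 0.22]. Ighm then stood at 3992 CPM in exposed and 4516 CPM in control B cells, Igkc at 7918 and 7217 CPM, and Iglc2 at 1600 and 1485 CPM. Igha dropped to 9.33 CPM in exposed and 27.2 CPM in control B cells. In this subset 0 members were called higher, where 0.0413% of 9686 genes were, and 3 were called lower, where 3.35% of genes were. Igha was 2.92-fold lower [2.23 to 3.86], Ighg2b 4.11-fold lower [2.37 to 7.56] at 2.10 against 8.64 CPM, and Ighg3 4.07-fold lower [2.64 to 6.48] at 3.42 against 13.9 CPM. Few cells still carried these sums: 1 control cell held 82 of the 233 Igha UMIs and another held 58 of the 119 Ighg3 UMIs. Ighg2b rested on 16 UMIs in 4 exposed cells and 74 UMIs in 11 control cells, 47 of them in 2 control cells. In cells with no UMI of the 3 B cell genes, Igha was 2.62-fold lower as well, at 4.12 against 10.8 CPM. Ighg3 there had 0 exposed and 106 control UMIs, and Ighg2b had 4 in each library. The part of this background in the B cell values was not tested.

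**Figure D1:**
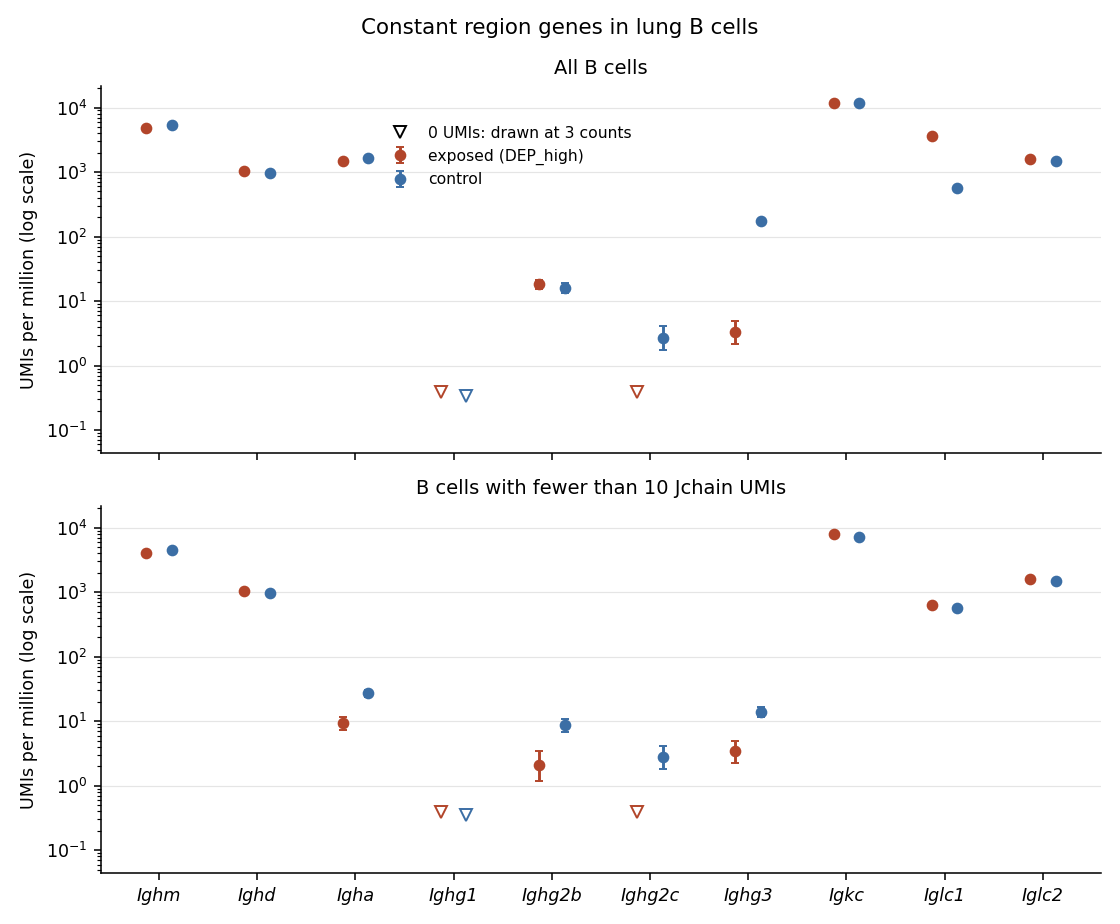
Level in CPM (log scale) of each member summed over B cells, exposed left of control, for all B cells (top) and for B cells with fewer than 10 Jchain UMIs (bottom). Points are library sums, bars are 95% Poisson intervals, and open triangles mark sums of 0 UMIs at the level of 3 counts; Iglc1 stands at 3572 against 571 in the top panel and 632 against 563 in the bottom panel.

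The barcodes with at least 10 Jchain UMIs numbered 6 in the exposed and 14 in the control library, of which 6 and 10 were B cells by the rule. They held 99.1% of all Jchain UMIs of the exposed library and 97.5% of those of the control library. They also held 97.3% of Igha, 31.4% of Igkc and 80.5% of Iglc1 UMIs in the exposed library, against 96.1% of Igha, 41.5% of Igkc and 5.07% of Iglc1 UMIs in the control library. By the heavy chain with most UMIs, 4 of the exposed barcodes were Igha and 2 were Ighm, and 9 of the control barcodes were Igha, 4 were Ighm and 1 was Ighg3. Of the control barcodes 2 were called doublets and 1 exceeded the mitochondrial limit.

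The exposed barcode with most member UMIs held 8123 Igha and 23587 Igkc UMIs, and members were 69.0% of its 46214 UMIs. The 2 exposed Ighm barcodes used lambda: one held 4255 Ighm, 15275 Iglc1 and 2 Igkc UMIs, the other 2588 Ighm, 7746 Iglc1 and 1 Igkc UMI. These 2 barcodes are those that carried the Iglc1 difference. All 14 control barcodes had more Igkc than Iglc1 and Iglc2 UMIs together, as did the 4 exposed Igha barcodes. The 4 control Ighm barcodes held between 209 and 3381 Ighm UMIs. The control Ighg3 barcode held 1411 Ighg3 and 1598 Igkc UMIs and 44 Jchain UMIs.

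Members made up between 7.53% and 69.0% of UMIs in the exposed barcodes, and between 0.674% and 54.9% in the control barcodes. Ighg2b UMIs occurred in 3 of the 4 exposed Igha barcodes, at 46, 29 and 51 UMIs beside 8123, 1677 and 1214 Igha UMIs. In the control library 3 of the 9 Igha barcodes had them, at 27, 40 and 36 Ighg2b beside 3482, 4308 and 1810 Igha UMIs. Most of the Ighg2b UMIs of exposed B cells (88.7%) and 47.5% of those of control B cells came from such barcodes. A broader rule, at least 4 of 8 secretion genes (Jchain, Mzb1, Sdc1, Tnfrsf17, Prdm1, Derl3, Txndc5, Edem1) and no Siglech UMI, took 51 exposed and 86 control barcodes. Of these, 18 exposed and 25 control barcodes lay in alveolar macrophage clusters, and 6 and 14 had at least 10 Jchain UMIs.

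**Figure D2:**
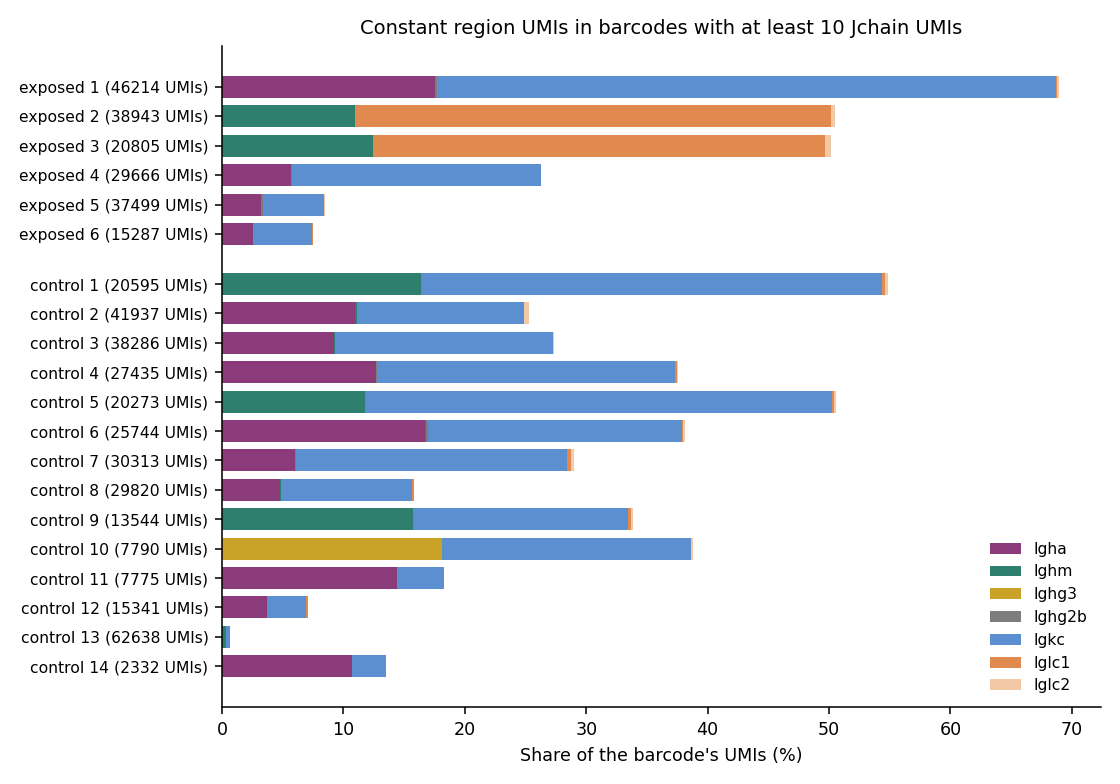
Share (%) of each barcode's UMIs from 7 members, for the 6 exposed barcodes (above) and 14 control barcodes (below) with at least 10 Jchain UMIs, ordered by member UMIs within each library. Colours are genes and the number beside each name is the barcode's UMI total. In 2 exposed barcodes, where members are 50.5% and 50.2% of UMIs, nearly all member UMIs are Ighm and Iglc1. In each control barcode Igkc exceeds the lambda members.

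Each B cell was then given a light chain call, kappa or lambda where that chain held at least 80% of at least 3 light chain UMIs. Kappa was called in 1139 exposed (62.9%) and 1312 control B cells (64.5%), lambda in 99 (5.47%) and 113 (5.55%), and 559 (30.9%) and 595 (29.2%) were mixed. Lambda was 7.997% [6.55 to 9.65] of kappa and lambda calls in exposed B cells and 7.93% [6.58 to 9.46] in control B cells. The ratio of these shares was 1.01 [0.762 to 1.33], an interval that includes 1. Kappa cells numbered 11.5 per lambda cell in the exposed and 11.6 in the control library.

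Counted in UMIs the picture differed: Igkc had 2.29 UMIs per Iglc1 and Iglc2 UMI in exposed B cells and 5.68 in control B cells. Without the cells of at least 10 Jchain UMIs these ratios were 3.55 and 3.52. Lambda cells had a median of 13 Iglc1 and 14 Iglc2 UMIs in the exposed library, and 8 and 12 in the control library. Iglc1 exceeded Iglc2 in 55 of 99 exposed and 54 of 113 control lambda cells. Among lambda cells 31.3% in the exposed and 31.9% in the control library held an Igkc UMI. In cells with no UMI of the 3 B cell genes, 9.51% of exposed and 25.2% of control cells held one.

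Kappa cells often held Iglc2 UMIs, in 88.3% of exposed cells at a median of 3 UMIs and in 81.8% of control cells at a median of 2. Cells with no UMI of the 3 B cell genes had an Iglc2 UMI in 1.71% of exposed and 3.74% of control cells, at higher median depths of 4470 and 3774 UMIs, so the share in kappa cells was above that background. The share of kappa cells with an Iglc1 UMI was 30.8% in the exposed and 27.2% in the control library. Mixed cells had medians of 25 Igkc, 9 Iglc2 and 2 Iglc1 UMIs in the exposed library, and of 24, 9 and 2 in the control library. Iglc2 exceeded Iglc1 in 495 of 559 exposed and 517 of 595 control mixed cells. Their median depth was 3712 UMIs in the exposed and 3402 UMIs in the control library, against 3637 and 3366 UMIs in kappa cells. Whether mixed cells hold RNA of 2 B cells was not tested.

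**Figure D3:**
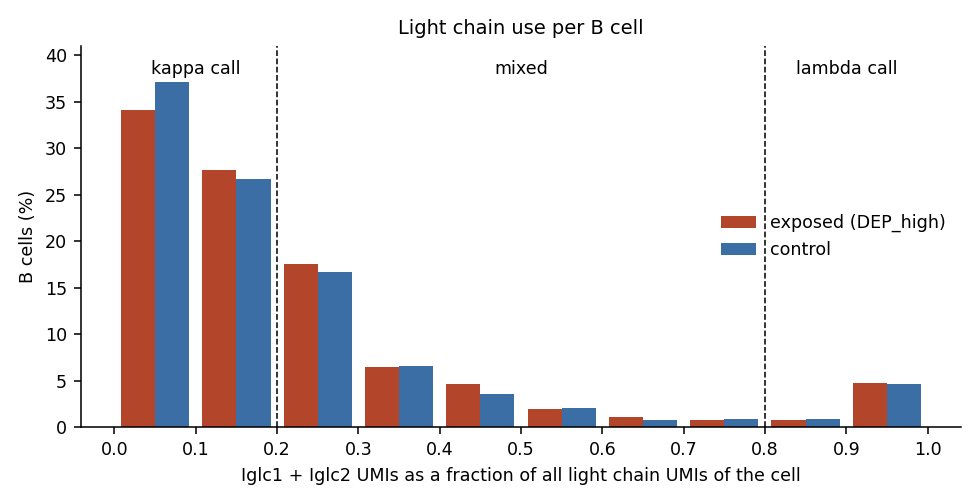
Percent of B cells with at least 3 light chain UMIs (y axis) by the fraction of those UMIs from Iglc1 and Iglc2 (x axis, bins of 0.1), exposed left of control. Dashed lines mark the limits of the calls; most cells sit in the kappa range, lambda calls make up 5.47% of exposed and 5.55% of control B cells, and a shoulder of mixed cells joins the kappa range.

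The leading heavy chain, with at least 3 UMIs, gave most B cells an isotype. Ighm and Ighd were tied in 49 exposed and 51 control B cells, and 12 and 20 cells had no call. Ighm led in 1638 exposed (90.4%) and 1879 control B cells (92.3%). Ighd led in 106 exposed B cells, 5.85% [4.82 to 7.04], and in 70 control B cells, 3.44% [2.69 to 4.33]. The ratio was 1.70 [1.25 to 2.34], but with every cell thinned to 1000 UMIs it was 1.26 [0.959 to 1.67], an interval that includes 1. Split by light chain, Ighd led in 6.94% of exposed and 4.27% of control kappa cells, in 5.05% and 4.42% of lambda cells, and in 3.94% and 1.51% of mixed cells. After the same thinning, 63.2% [61.0 to 65.5] of exposed and 61.6% [59.4 to 63.7] of control B cells had an Ighd UMI, intervals that overlap, against 91.8% and 88.9% before thinning.

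Switched cells, led by Igha or an Ighg gene, were rare in both libraries. They numbered 6 exposed cells, 0.331% [0.122 to 0.720], and 15 control cells, 0.737% [0.413 to 1.21], a ratio of 0.449 [0.143 to 1.23] whose interval includes 1. In the exposed library 5 were led by Igha and 1 by Ighg2b. In the control library 8 were led by Igha, 4 by Ighg2b, 2 by Ighg3 and 1 by Ighg2c. Cells led by Ighg1 were 0 of 1811 exposed and 0 of 2035 control B cells, which allows shares of up to 0.166% and 0.147% by the limit of 3 counts, and of up to 0.203% and 0.181% by the Clopper-Pearson interval used for the other shares. Of the switched cells 4 exposed and 6 control cells had at least 10 Jchain UMIs. The rest had modest counts, such as an exposed cell with 15 Igha and 88 Igkc UMIs, a control cell with 12 Ighg2c, 9 Ighg2b and 275 Igkc UMIs, and a control lambda cell with 58 Ighg3 and 46 Iglc1 UMIs.

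Scattered Igha UMIs were not read as switching. Igha UMIs occurred in 3.31% of exposed B cells and 5.85% of control B cells, and in 2.47% and 5.45% of cells with no UMI of the 3 B cell genes, at deeper medians. For Ighg3 the shares were 0.607% and 2.56% of B cells, and 0% and 1.58% of those other cells. Thinned to 1000 UMIs, 1.22% [0.764 to 1.84] of exposed and 1.87% [1.33 to 2.56] of control B cells had an Igha UMI. Those other cells had one in 0.378% [0.242 to 0.561] and 1.39% [1.11 to 1.71]. At equal depth the share in B cells was therefore higher in the exposed library, while the control intervals overlapped. These B cells include those with at least 10 Jchain UMIs.

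Switched cells were compared with unswitched B cells within each library, and the values rest on the 6 exposed and 15 control switched cells. Of genes other than immunoglobulins 10.8% of 8125 were past 1.5-fold in the exposed and 7.83% of 8699 in the control library. Tnfrsf17, which encodes the plasma cell survival receptor BCMA, had 36 UMIs in the 6 switched exposed cells and 2 UMIs in 1793 unswitched cells. In the control library it had 87 UMIs in the 15 switched cells and 7 UMIs in 2000 unswitched cells. Jchain was 253-fold higher in switched exposed and 58.9-fold higher in switched control cells. Also higher in both were Derl3 and Creld2, which serve protein folding and degradation in the endoplasmic reticulum, Lman1, a cargo receptor, and Xbp1, the transcription factor of secretory cells (12.2-fold in exposed and 11.5-fold in control cells). Pycard, an inflammasome adaptor, was 28.8-fold and 14.8-fold higher, and Fam46c, Gm5547 and Chtf18 completed the set. A single cell gave 74.6% of the exposed Jchain UMIs of switched cells. Of the 6 exposed switched cells, Pycard and Fam46c had UMIs in 5, Jchain and Tnfrsf17 in 4, and Chtf18 in 1. Derl3, Creld2, Lman1, Xbp1 and Gm5547 had UMIs in 3. In the control library these genes had UMIs in 4 to 9 of the 15. Of 914 Jchain UMIs in unswitched exposed cells, 2 Ighm barcodes held 449 and 455. Of 2599 in unswitched control cells, 4 Ighm barcodes held 931, 801, 814 and 12. The part of secretion in these values was not tested.

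Lower in switched cells of both libraries were Ebf1 (10.8-fold in exposed, 5.37-fold in control), the chromatin organiser Satb1 (9.03-fold and 5.88-fold) and Fchsd2 (15.8-fold and 7.396-fold). Cr2, complement receptor 2, had 0 UMIs in switched cells of both libraries, beside 733 UMIs in exposed and 740 UMIs in control unswitched cells. Ms4a4c was also at 0, beside 717 and 637 UMIs. Hspa1a, Plk2 and Rasgef1b had 0, 0 and 1 UMIs in exposed and 1, 2 and 3 UMIs in control switched cells. Lyz2 and Chil3, which are myeloid genes, were lower as well, 32.5-fold and 12.8-fold in exposed and 19.6-fold and 12.9-fold in control cells. The switched cells were deeper, with medians of 22477 UMIs in exposed and 11688 UMIs in control cells, against 3661 and 3362 UMIs in unswitched cells; the part of depth in these values was not tested.

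Between lambda and kappa cells, 1.18% of 7105 genes were past 1.5-fold in the exposed and 1.77% of 7891 in the control library. With 99 and 113 lambda cells many genes had few UMIs, so these shares do not show how alike the cells are. By the same ranking Coq7 (3.70-fold in exposed, 4.33-fold in control), Pafah1b3 (2.06-fold and 2.01-fold) and Fam129c (2.52-fold and 3.63-fold) were higher in lambda cells. Gm30211 (9.11-fold and 3.37-fold), Id2, an inhibitor of E proteins (4.88-fold and 2.86-fold), and Stmn1, a microtubule regulator (4.15-fold and 6.98-fold), were lower. In exposed and control lambda cells, Coq7 had 21 and 24 UMIs, Pafah1b3 63 and 61, and Fam129c 22 and 43. Gm30211 had 7 and 16, Id2 5 and 19, and Stmn1 5 and 3.

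Genes that work with the constant regions were compared in exposed and control B cells through 6 lists. Counts of called genes are read beside the shares over all 9749 genes, 0.113% called higher and 3.21% called lower in exposed B cells. Of 14 counted B cell receptor complex genes 0 were called higher and 0 lower, with a median log2 ratio of -0.07 beside -0.15 for all genes. Cd79a stood at 3171 CPM in exposed and 2839 CPM in control B cells, and Syk, the kinase that couples the receptor, at 393 and 456 CPM. Of 12 counted class switching genes 0 were higher and 1 was lower, Rora, a nuclear receptor, at 4.87 and 14.2 CPM, and the median log2 ratio was -0.30. Of 12 antibody secretion genes 0 were higher and 1 was lower, Prdm1, the regulator that ends the B cell programme, at 7.31 CPM in exposed and 15.6 CPM in control B cells, and the median was -0.30. Mzb1, a chaperone of antibody assembly, stood at 443 CPM in exposed and 331 CPM in control B cells. Jchain, the largest of this list by count, stood at 678 and 741 CPM. Log2 intervals lay above 0 for 2 of these 12 genes and below 0 for 7. Of 9 Fc receptor and transport genes 0 were higher and 1 was lower, Fcer1g (104 and 172 CPM), a chain expressed by myeloid cells, with a median of -0.06. Fcmr, the receptor for IgM, stood at 692 and 589 CPM. Of 9 naive and follicular genes, with a median of 0.04, 0 were called, and Klf2, a factor of resting lymphocytes, stood at 1243 and 1052 CPM. Ccr7 of the same list went the other way, at 592 CPM in exposed and 681 CPM in control B cells. Log2 intervals lay above 0 for 3 of these 9 genes and below 0 for 3. Of 13 memory, marginal zone and B-1 genes, with a median of -0.28, 0 were higher and 3 were lower: Cd9 (117 and 192 CPM), Cd80 (5.26 and 13.9 CPM) and Spn (11.2 and 22.6 CPM). The list went both ways, with log2 intervals above 0 for 4 of the 13 genes and below 0 for 7. Plac8, its largest gene by count, stood at 765 CPM in exposed and 631 CPM in control B cells. The B cells outside clusters named B numbered 27 exposed and 88 control cells, and their part in these differences was not tested.

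Cells with no UMI of Cd79a, Cd79b or Ms4a1 gave the background of RNA outside B cells. They numbered 6446 exposed and 6150 control cells, and members were 0.0134% and 0.0215% of their UMIs. Igkc stood at 15.9 CPM in exposed and 52.8 CPM in control cells, 3.32-fold lower [3.05 to 3.63]. Called lower with it, where 0.83% of 12527 genes were, were Ighd (2.34 and 7.71 CPM), Igha (4.12 and 10.8 CPM) and Iglc2 (2.61 and 6.66 CPM). Ighg3 was called lower as well, with 0 UMIs in exposed and 106 UMIs in control cells. Iglc1 stood at 4.40 CPM in exposed and 2.56 CPM in control cells, 1.72-fold higher [1.34 to 2.22], an interval not wholly past 1.5-fold, so 0 members were called higher, where 0.479% of genes were. Thinned to 1000 UMIs, 2.06% of exposed and 6.42% of control cells had an Igkc UMI, against 9.51% and 25.2% before thinning; 89 exposed and 95 control cells were too shallow to be thinned.

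Summed over all classes, the ratio of Iglc1 to Igkc outside B cells followed that of the library's own B cells. Iglc1 had 27.7 UMIs per 100 Igkc UMIs in exposed cells outside the rule and 4.85 in control cells, beside 30.1 in exposed and 4.89 in control B cells. Single classes ranged from 5.56 (gamma-delta T cells) to 56.1 (NK cells) in the exposed library. In the control library they ranged from 0 (gamma-delta T cells) to 21.3 (classical monocytes). A single control cell held 21 of the 95 control Iglc1 UMIs outside the rule. For Iglc2 the values per 100 Igkc UMIs were 16.4 and 12.6 outside the rule, beside 13.5 and 12.7 in B cells. Ighd stood higher outside the rule, at 14.7 in exposed and 14.6 in control cells, beside 8.70 and 8.13. Igha did too, at 25.9 and 20.5, beside 12.4 and 14.2. Ighg3 had 0 and 5.41, beside 0.0281 and 1.49. Ighm did not follow B cells either. It stood at 104.6 CPM in exposed and 131.5 CPM in control cells, with 6.58 Ighm UMIs per Igkc UMI in exposed and 2.49 in control cells, beside 0.402 in exposed and 0.454 in control B cells. In alveolar macrophages the ratio was 0.960 in exposed and 0.884 in control cells, at 12.1 and 27.4 CPM of Ighm. In interstitial macrophages it was 28.3 in exposed [14.1 to 66.2] and 7.37 in control cells [5.17 to 10.8], at 212 and 197 CPM.

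T cells had 148 CPM of Ighm in exposed and 190 CPM in control cells, neutrophils 124 and 164 CPM, and classical monocytes 126 and 156 CPM. NK cells had 83.7 and 114 CPM, and gamma-delta T cells 70.4 and 63.9 CPM. Neighbouring values in this order often had overlapping intervals, such as those of exposed neutrophils [117 to 133] and exposed classical monocytes [117 to 135]. Ighm UMIs occurred in 37.7% of exposed cells and 42.7% of control cells outside the rule, and in 10.8% and 13.2% after thinning. What these Ighm UMIs are was not tested.

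**Figure D4:**
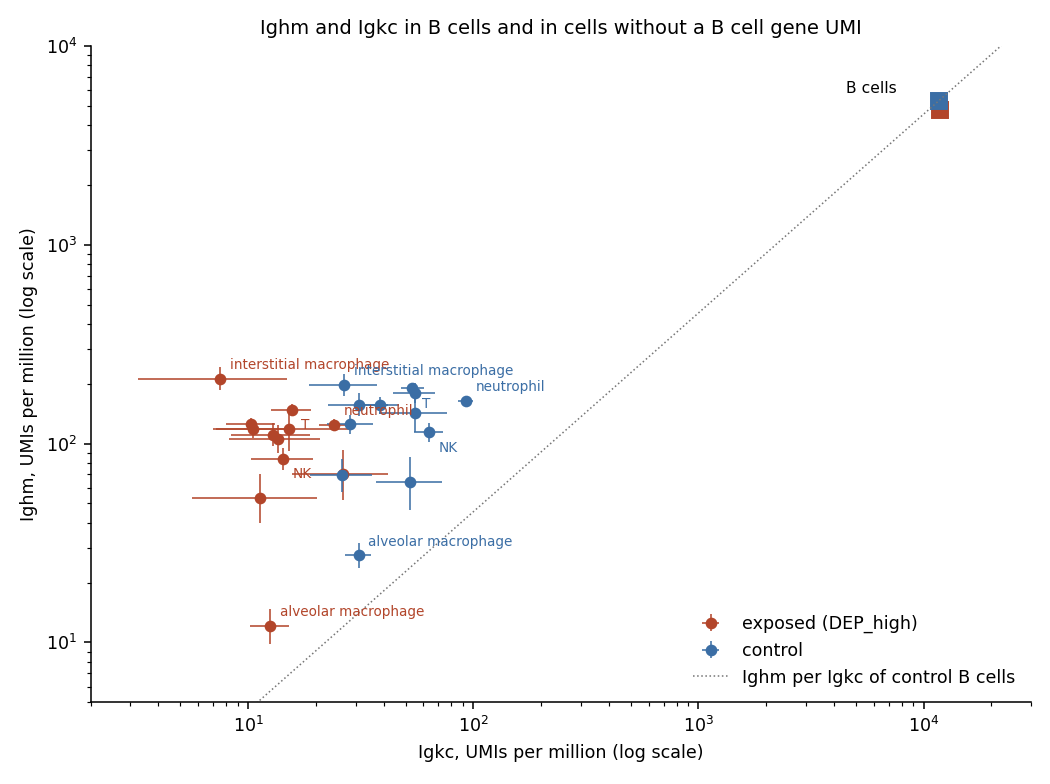
Ighm against Igkc in CPM (both log scales) for B cells (squares) and for each class of cells with no UMI of the 3 B cell genes (circles, with 95% Poisson intervals), exposed in red and control in blue. The dotted line has the Ighm per Igkc ratio of control B cells, 0.454. All circles lie above it, and those of alveolar macrophages, at ratios of 0.960 in exposed and 0.884 in control cells, are nearest to it.

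Across 13 cell classes in 2 libraries (26 points, log2 of CPM plus 1), the genes whose pattern was most like that of Ighm were Cecr2 (Pearson r 0.91), Vpreb3 (0.90) and Bank1 (0.90). For Igkc they were Mzb1 (0.96), Ly6d (0.95) and Cd79a (0.95), and for Igha they were Jchain (0.98), Mzb1 (0.94) and Oosp1 (0.88). The points share libraries and depth, and the values are given as a description.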

How the data were processed

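The deposited values are raw UMI counts for each gene in each barcode. Cell Ranger and mm10 are named per the submitters' processing notes (version 3.1.3) and version 3.1.0 per the file headers; which applies was not settled. A barcode passed with 500 UMIs or more, 200 genes or more and a mitochondrial share of up to 10%, and simulated doublets guided the removal of 706 exposed and 751 control barcodes. Clusters (scanpy 1.11.5, leidenalg 0.10.2) used 2000 variable genes without immunoglobulin genes and were named by marker lists. UMIs were summed per library and population, as CPM with exact Poisson intervals, shares with Clopper-Pearson intervals and ratios with exact conditional binomial intervals (scipy 1.17.1); 0.5 counts were added for log2 ratios only. These intervals assume independent UMIs and cover counting error only. Genes named beside the members followed a rule of size: the 10 highest and 10 lowest by the interval bound nearest to 0 in both libraries for switched cells, 3 and 3 for lambda cells, and the 3 best correlated. Members, lists and rules were chosen with earlier results of these data known. Columns without a sample numbered 0. Gene positions are from GENCODE. Alternatives changed the barcode filter, doublet removal, B cell threshold, call limits, cell weights, denominator and thinning. The limit of 10 Jchain UMIs was set after its values were seen.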

Additional observations from a re-analysis of the deposited data

How the results depend on the processing

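No paired analysis was possible because each group has 1 library and no replicate could be left out. The share of lambda calls, the mixed share, the switched share, the Igkc level and Igkc share outside B cells stayed within their main intervals under each alternative tried. The Ighd-leading share ratio, 1.70, was 1.26 after thinning, with an interval that includes 1, and up to 1.76 under the other alternatives. The lambda share ratio ranged from 0.946 to 1.27 and the switched share ratio from 0.249 to 0.547. The number of members called in B cells, 2, was 1 under a stricter filter, which removes the Ighg3 cell by its mitochondrial share, and 4 with each cell weighing the same, where no interval applies. Kappa per lambda UMI, 2.29 in exposed and 5.68 in control B cells, was 2.24 and 6.31 with the stricter filter, 2.39 and 5.96 with doublets kept, 1.96 and 4.09 with Iglc3 added, 3.19 and 3.88 after thinning, and 3.55 and 3.52 without cells of at least 10 Jchain UMIs. In exposed B cells it was 2.25 at a threshold of 10 and 2.24 in clusters named B. Ighm per Igkc in control cells outside B was 2.35 without the 1% of cells with most member UMIs. The log2 ratio of Igkc turned to -0.0373 (stricter filter), -0.0488 (doublets kept), -0.0560 (equal cells) and -0.146 (clusters named B), where Ighd turned to -0.00912 and Iglc2 to -0.0274. The other causes were not tested. Of 88 values of single members under alternatives, 40 stayed within the main interval. The last 2 settings, without Jchain-rich cells and within clusters named B, were chosen after seeing the data.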
